A study of Caenorhabditis elegans with 2 samples.

Results

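The nuclear genes of the mitochondrial respiratory chain and ATP synthase were examined for SNPC-4 at their 5′ ends in the nematode Caenorhabditis elegans. They were all nuclear protein-coding genes whose names start with nuo-, cox-, cco-, ucr-, sdh- or atp-. The RefSeq annotation of WBcel235 holds 31 of them among 19971 nuclear protein-coding genes, and none is named cco- or sdh-. SNPC-4 was mapped by chromatin immunoprecipitation and sequencing (ChIP-seq) in 1 group of 2 biological replicates. The worms were whole young adult hermaphrodites of strain YL551, collected 60 hours after synchronisation as starved first-stage larvae. They carry a transgene in which GFP and FLAG are fused to the C-terminus of SNPC-4. Chromatin was sheared by sonication and recovered with an antibody against GFP, so the lists record tagged SNPC-4. Tissues of the whole worm cannot be told apart, and no untagged or untreated library was analysed here.

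SNPC-4 binds DNA through Myb domains. It belongs to SNAPc, a complex named for activating small nuclear RNA (snRNA) genes, and in worms it is also known from spliced leader RNA and piRNA genes. The respiratory chain passes electrons from NADH and succinate to oxygen through complexes I to IV and pumps protons out of the mitochondrial matrix. ATP synthase, complex V, lets the protons back in and makes ATP. Most of the subunits, and the factors that assemble them, are encoded in the nucleus.

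The DNA under the summits of 6 of these genes is shown first: nuo-1, ucr-2.2, cox-5A, the assembly factor gene cox-16 and atp-2, which had the strongest peak of each group among the 12 windows available for printing, and ucr-1, which had the weakest peak of all. The windows of cox-4, cox-5B, atp-1 and atp-3 are the 4 not shown, so atp-2 stands here for ATP synthase although the atp-1 peak was stronger. Each window reaches 100 bp to either side of the summit and is read 5′ to 3′ on the gene's strand, from the RefSeq genome of WBcel235, the same assembly as ce11. Capitals mark CTGTTTCA, TTTCAG, CGCCTTTAA and CGATTTACG on either strand, whose frequencies are given with the sequence results; in the atp-2 window CTGTTTCA and TTTCAG overlap by 5 letters.
nuo-1 (chrII:11097454-11097654, plus strand): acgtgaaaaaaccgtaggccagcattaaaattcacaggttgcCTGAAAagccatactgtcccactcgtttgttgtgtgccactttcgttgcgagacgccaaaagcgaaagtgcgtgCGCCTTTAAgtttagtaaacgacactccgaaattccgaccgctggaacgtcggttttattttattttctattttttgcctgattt
ucr-2.2 (chrX:15173614-15173814, plus strand): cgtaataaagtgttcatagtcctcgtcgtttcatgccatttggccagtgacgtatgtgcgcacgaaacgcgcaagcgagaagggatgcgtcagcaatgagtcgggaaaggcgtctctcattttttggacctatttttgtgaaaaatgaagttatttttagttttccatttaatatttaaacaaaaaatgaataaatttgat
ucr-1 (chrIII:5591889-5592089, plus strand): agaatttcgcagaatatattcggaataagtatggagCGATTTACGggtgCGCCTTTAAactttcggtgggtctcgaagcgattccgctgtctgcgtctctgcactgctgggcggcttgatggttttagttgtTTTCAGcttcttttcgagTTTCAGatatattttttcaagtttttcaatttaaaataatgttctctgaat
cox-5A (chrIII:12905108-12905308, plus strand): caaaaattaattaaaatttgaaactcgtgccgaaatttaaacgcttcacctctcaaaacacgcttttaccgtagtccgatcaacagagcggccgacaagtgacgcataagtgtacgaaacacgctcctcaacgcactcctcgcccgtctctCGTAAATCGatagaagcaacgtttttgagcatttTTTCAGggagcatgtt
cox-16 (chrV:5536510-5536710, minus strand): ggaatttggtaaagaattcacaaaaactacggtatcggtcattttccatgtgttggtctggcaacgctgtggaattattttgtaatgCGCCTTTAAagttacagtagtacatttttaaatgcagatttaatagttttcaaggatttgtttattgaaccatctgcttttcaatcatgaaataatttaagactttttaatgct
atp-2 (chrIII:5228102-5228302, plus strand): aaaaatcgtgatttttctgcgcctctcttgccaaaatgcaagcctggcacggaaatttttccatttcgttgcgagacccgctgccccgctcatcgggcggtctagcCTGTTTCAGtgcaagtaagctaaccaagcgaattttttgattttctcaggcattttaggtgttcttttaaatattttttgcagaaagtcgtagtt
No 9-base word is shared by all 6 windows. CGCCTTTAA is marked in nuo-1, ucr-1 and cox-16, CGATTTACG in ucr-1 and cox-5A, and TTTCAG in nuo-1, ucr-1, cox-5A and atp-2. CTGTTTCA is marked in atp-2 only, and the ucr-2.2 window has no capitals.

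A peak was a summit that passed the authors' irreproducible discovery rate (IDR) filter and lay within 500 bp of any annotated 5′ end of the gene. Of the 31 genes, 16 had one (51.6%, exact 95% binomial interval 33.1 to 69.8%), against 1491 of all 19971 genes (7.47%). Such intervals cover counting error only. By complex, all 5 atp- genes of ATP synthase had one, 5 of 7 genes for complex IV subunits, 3 of 5 for complex III, 2 of 8 for complex IV assembly factors and 1 of the 6 nuo- genes of complex I. Taken from the strongest regions of a single replicate, the counts were 3 to 5 for complex V, 3 to 5 for complex IV subunits, 2 to 3 for complex III, 1 to 2 for assembly and 0 to 2 for complex I. The names leave out other subunit genes. Of 5 listed ATP synthase genes of other names 1 had a peak, which makes 6 of the 10 genes listed here. Among 27 complex I genes named nd, 9 had a peak. Intervals of the shares by complex are wide, 47.8 to 100% for the atp- genes of complex V and 0.421 to 64.1% for the nuo- genes of complex I. With the assembly factor genes left out, 14 of 23 subunit genes had a peak.

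**Figure D1:**
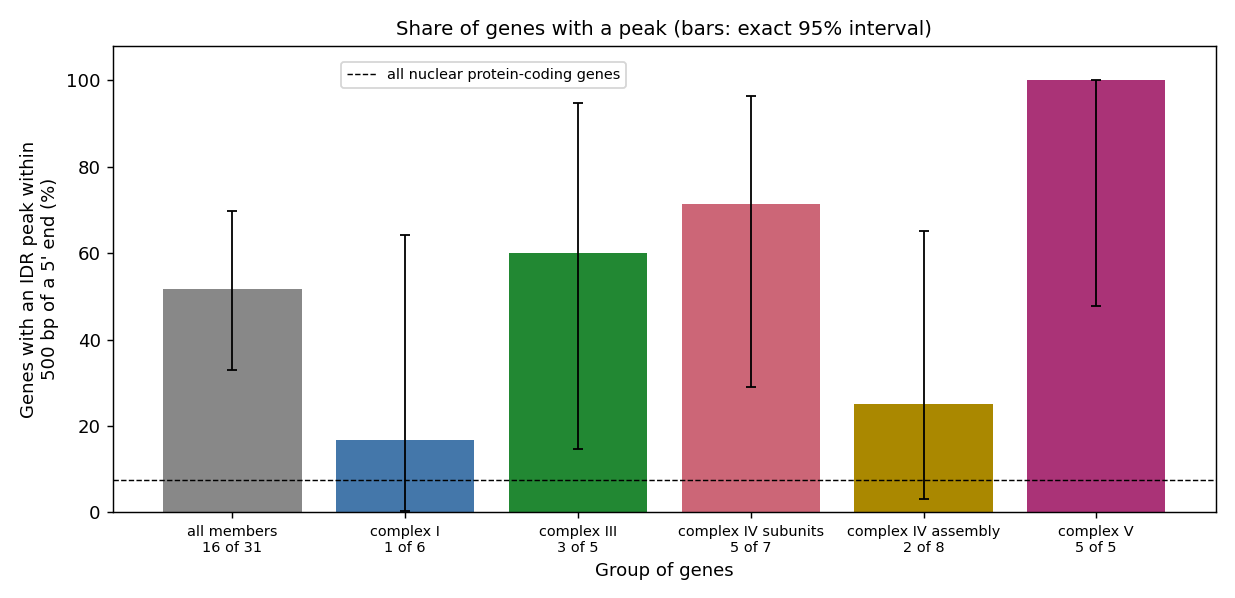
Share of genes with an IDR peak within 500 bp of a 5′ end (y axis, percent) for all 31 genes and for each complex (x axis), with exact 95% binomial intervals as error bars; the dashed line is the share over all nuclear protein-coding genes. Complex V, atp- names only, stands at 5 of 5 and complex I, nuo- names only, at 1 of 6, and their intervals overlap.

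Signal here is the score deposited for each region by the authors, on a scale that depends on sequencing depth. It was therefore also divided, within each replicate, by that replicate's median over the IDR peaks, 69.3 in replicate 1 and 77.0 in replicate 2. A relative signal of 1 is that of a median peak. Coordinates are in build ce11. The depth behind each replicate is unknown, since the region lists carry no read counts.

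Complex IV, cytochrome c oxidase, passes electrons to oxygen and held the strongest signals. At cox-5A, which encodes a nuclear subunit of the enzyme, the peak (III, 12905029 to 12905387) had a pooled signal of 759.8 and ranked 150 of 2926 nuclear summits. Its signal was 364 in replicate 1 and 407 in replicate 2, or 5.26 ± 0.031 (SD, n = 2) times the median peak. At cox-5B, another subunit gene, the peak (I, 9788514 to 9788876) had a pooled signal of 447, with 219 in replicate 1 and 228 in replicate 2. Both replicates thus placed cox-5A above cox-5B, whose relative signal was 3.06 ± 0.147 (SD, n = 2). The subunit gene cox-6B followed with 199.6 pooled, 103 in replicate 1 and 96.7 in replicate 2. The other subunit genes with a peak, cox-6C (91.8 pooled; 40.4 and 51.6 in replicates 1 and 2) and cox-4 (86.9 pooled; 34.7 and 50.1), lay below the median peak in both replicates. The 5 bound genes of this one enzyme thus spanned nearly the range of all 16.

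Among the genes that act in building complex IV, cox-16 and cox-14, each annotated as an assembly factor gene, had a peak. The cox-16 peak had a pooled signal of 114 and 64.4 in replicate 1, but replicate 2 listed no overlapping candidate region; 2914 of the 2926 IDR summits had one. The cox-14 signal was 90.6 pooled, 28.2 in replicate 1 and 65.1 in replicate 2. No peak lay at the genes for heme A synthesis (cox-10 and cox-15), for copper delivery and copper binding (cox-11, cox-17 and cox-19) or for membrane insertion (cox-18).

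ATP synthase has a catalytic head and a stalk that holds it to the membrane. The alpha subunit gene of the head, atp-1, had a pooled signal of 358 (I, 12652127 to 12652404), with 175 in replicate 1 and 185 in replicate 2, or 2.46 ± 0.0915 (SD, n = 2) times the median peak. The gene of the catalytic beta subunit, atp-2, had 105 pooled, with 57.6 in replicate 1 and 59.8 in replicate 2. The gene of the oligomycin sensitivity conferral protein, atp-3, was close to it with 105 pooled, 54.2 in replicate 1 and 58.0 in replicate 2. The stalk genes atp-5 (89.2 pooled; 36.6 and 63.4) and atp-4 (87.7 pooled; 45.0 and 51.7), for subunit d and coupling factor 6, were lowest. All of them but atp-1 lay below the median peak in both replicates, so of the 5 atp- genes, all with a peak, 1 had a signal above the median peak. Of the listed ATP synthase genes of other names, asg-2 (subunit g) had a peak with 89.8 pooled, and asb-1, asb-2, asg-1 and hpo-18 had none.

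Complex III passes electrons from ubiquinol to cytochrome c. At ucr-2.2, of the core protein 2 family, the peak (X, 15173590 to 15173818) had a pooled signal of 260.2, with 96.1 in replicate 1 and 164 in replicate 2. Its relative signal of 1.76 ± 0.527 (SD, n = 2) was above the median peak in each replicate. Its paralog ucr-2.1 had 142 pooled, with 49.3 in replicate 1 and 87.5 in replicate 2. Replicate 1 put ucr-2.1 below the median peak and replicate 2 above it (0.711 and 1.14). The third family member, ucr-2.3, had no peak and no candidate region. The gene of core protein 1, ucr-1, had the weakest of the 16 peaks, 85.3 pooled, with 28.9 in replicate 1 and 54.0 in replicate 2; the small subunit gene ucr-11 had none. How reads from near-identical stretches of paralogs were placed is not stated in these sources.

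Complex I takes electrons from NADH. Among the nuo- genes, a peak lay only at nuo-1, for the flavin-binding subunit that meets NADH, on II from 11097326 to 11097781. Its pooled signal was 98.2, with 48.7 in replicate 1 and 42.2 in replicate 2. The genes of the iron-sulfur subunits nuo-2 and nuo-5 and of the accessory subunits nuo-3, nuo-4 and nuo-6 had none.

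**Figure D2:**
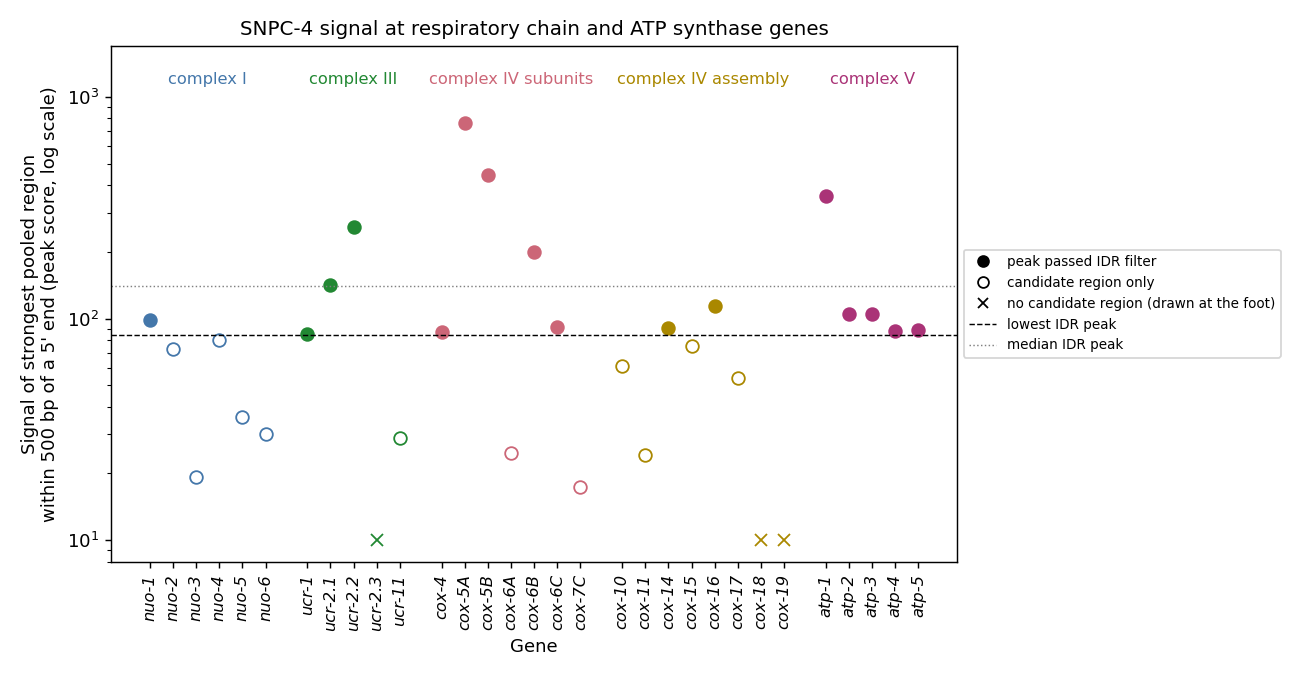
Signal of the strongest pooled region within 500 bp of a 5′ end (y axis, peak score, log scale) for each of the 31 genes (x axis), grouped by complex; filled points passed the IDR filter, open points are candidate regions only, crosses are genes with no candidate region. The dashed line is the weakest IDR peak at 84.4 and the dotted line the median IDR peak at 140.2; 10 of the 16 filled points lie between them.

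By their median, the 16 peaks together were weak for peaks at 5′ ends. Their median pooled signal was 105, against 138 over all 1491 genes with a peak. Complex IV subunits (199.6) and complex III (142) had higher medians than 138, and complex V (105), assembly (102) and complex I (98.2) lower ones. A signal under 105.7, the lower quartile of IDR peaks, was found at 9 of 16 (56.2%, interval 29.9 to 80.2%), against 26.2% of all genes with a peak. Above the median peak lay 6 of 16 (37.5%, interval 15.2 to 64.6%), against 48.6%, which that interval holds. Below a pooled signal of 100 lay 7 of the 16, against 19.5% of all IDR peaks. In the separate replicates the median relative signal was 0.746 (replicate 1) and 0.823 (replicate 2), against 0.928 and 1.01 for all genes with a peak. Of the 15 genes matched in both replicates, 9 had the higher relative signal in replicate 2, with the widest gaps at cox-14, atp-5, ucr-2.1, ucr-2.2 and ucr-1.

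**Figure D3:**
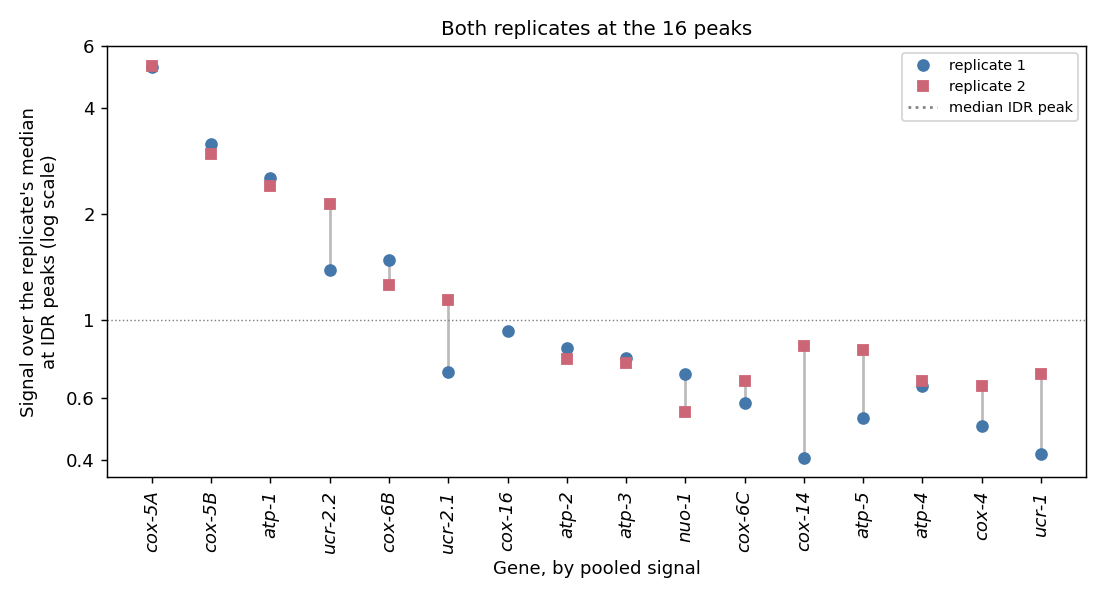
Signal over the replicate's own median at IDR peaks (y axis, log scale) in replicate 1 (circles) and replicate 2 (squares) for the 16 genes with a peak (x axis, ordered by pooled signal); grey lines join the replicates. The strongest genes, cox-5A, cox-5B and atp-1, have nearly equal values, while cox-14 and ucr-1 have their replicate 2 value well above that of replicate 1; cox-16 has no value in replicate 2.

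When the 2926 strongest candidate regions of each replicate were used in place of the IDR list, replicate 1 gave 12 of the 31 genes (6.63% of all genes) and replicate 2 gave 14 (7.5%). Replicate 1 lost ucr-1, cox-4, cox-6C, cox-14, atp-4 and atp-5 and added nuo-4 and cox-15. Replicate 2 lost nuo-1 and cox-16 and added none. The 8 genes whose peak was among those strongest regions in both replicates (5.11% of all genes) were cox-5A, cox-5B, cox-6B, ucr-2.1, ucr-2.2, atp-1, atp-2 and atp-3. The 1463 IDR peaks with the highest pooled signal held 6 of the 31 (3.63% of all genes), the same genes without atp-2 and atp-3.

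Of the 15 genes without a peak, 12 had a candidate region that did not pass the filter. The candidate lists hold background as well as peaks, so such a region alone does not show binding. Counting all 31 genes, 28 had some pooled candidate region within 500 bp, against 36.2% of all genes. Among the 12, the strongest candidate was at nuo-4 with a pooled signal of 80.4, just under the weakest IDR peak of 84.4. Its signal was 51.4 in replicate 1 and 41.6 in replicate 2. Next were cox-15 with 75.2, nuo-2 with 73.1, cox-10 with 61.0 and cox-17 with 54.0, all above the median of 27.2 over the pooled candidates. Lower signals stood at nuo-5 (36.0), nuo-6 (30.3), ucr-11 (29.0), cox-6A (24.8), cox-11 (24.2), nuo-3 (19.3) and cox-7C (17.4). No region was listed for ucr-2.3, cox-18 or cox-19.

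The summits lay upstream of the genes and mostly at some distance. Of the 16, 14 were outside any annotated protein-coding gene and 2 were in an exon of a neighbour, syp-2 at cox-16 and alh-4 at atp-4. No share over all genes with a peak is given for this count. All 16 were upstream of the gene's nearest annotated 5′ end, as were 85.9% of the summits over all genes with a peak. The median position relative to the 5′ end was -273 bp, against -194 bp, with negative values upstream. From 150 to 500 bp upstream lay 13 of 16 (81.2%, interval 54.4 to 96.0%), against 62.0%. Only 2 of the 16 summits were within 100 bp of the 5′ end, at atp-1 (-5 bp) and atp-3 (-88 bp). That is 12.5%, against 20.1% of all genes with a peak. Counted over genes, 6.45% of the 31 had a summit that near, against 1.54% of all genes. Within 250 bp there were 7 of the 31 genes (22.6%), against 4.54% of all genes. Worm transcripts are often trimmed at the 5′ end by trans-splicing of a leader RNA, so an annotated 5′ end need not be where transcription starts. In the Ensembl annotation the 16 genes were the same, but additional 5′ ends put the summit at -12 bp in place of -296 bp at cox-5B and at 1 bp in place of -88 bp at atp-3.

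The farthest summits were at atp-4 (-458 bp) and cox-4 (-456 bp). Just outside the limit was cox-6A, with an IDR summit at -770 bp. That peak was the strongest near any of the 31 genes, with a pooled signal of 5051 (2118 in replicate 1 and 3023 in replicate 2) and rank 30. It lay 58 bp from F54D8.7, an annotated snRNA gene, the class of gene that SNAPc is known for. At 1000 bp, cox-6A made the count 17 of 31 (10.2% of all genes).

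Many of these peaks also lay near the 5′ end of another gene. Another protein-coding gene had a 5′ end within 500 bp of the summit at 11 of the 16 genes (68.8%, interval 41.3 to 89.0%), against 39.1% of all genes with a peak. In all 11 cases it was on the other strand, a count given without its share over all genes with a peak. At 10 of 16 the gene's own 5′ end was the nearest one (62.5%), against 80.5%. Peaks whose nearest 5′ end was the gene's own left 10 of 31 genes (6.04% of all genes). Nearer than the respiratory gene were Y71H2AM.20 at cox-6B, nmat-1 (NAD synthesis) at ucr-2.1, rde-4 (a double-stranded RNA binding protein of RNA interference) at cox-14, syp-2 (a synaptonemal complex protein) at cox-16, lmtr-3 at atp-5 and grld-1 at cox-6C. The cox-16 summit was inside an exon of syp-2, 123 bp downstream of the syp-2 5′ end. Peaks shared with a divergent gene but nearer to the respiratory gene were those of nuo-1 with rpl-36A (a ribosomal protein), ucr-1 with ddx-15 (a helicase), atp-1 with mcrs-1, atp-2 with C34E10.10 and atp-3 with F27C1.2. To which gene of a pair a peak belongs was not tested. No other 5′ end was within 500 bp at cox-4, cox-5A, cox-5B, ucr-2.2 and atp-4, a group that holds the 2 strongest peaks and 2 of the weakest 3.

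**Figure D4:**
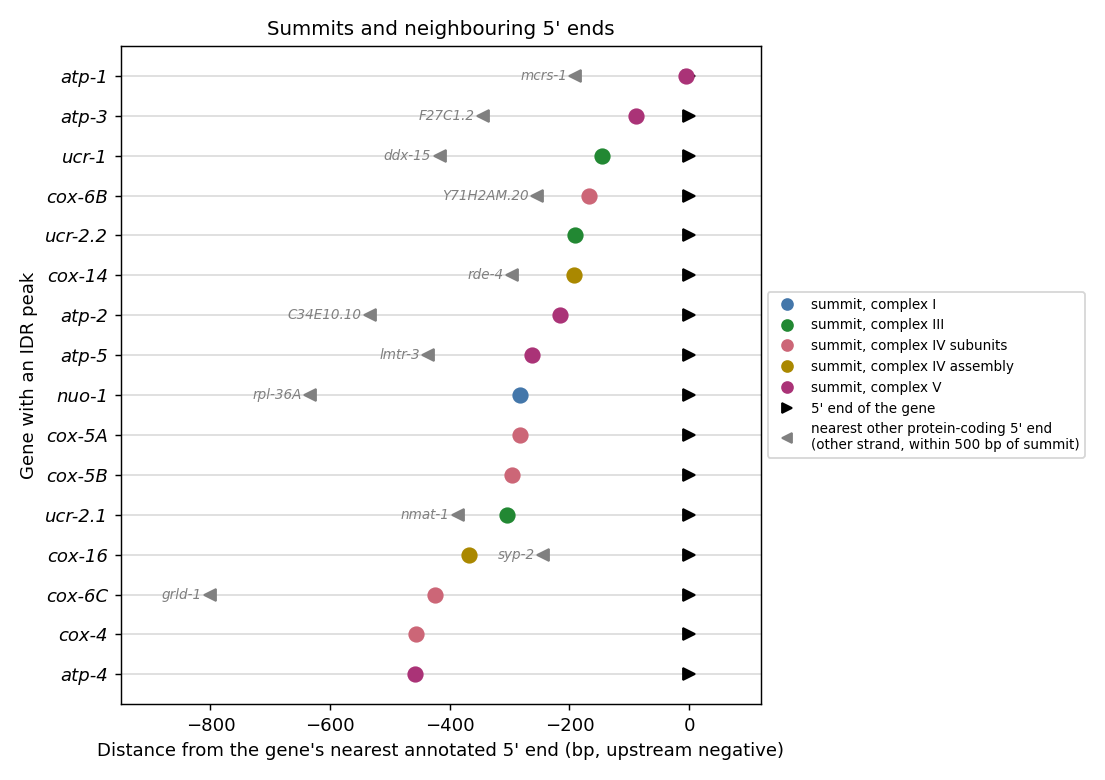
Position of each summit (coloured circle, by complex) relative to the gene's nearest annotated 5′ end (black triangle at 0, x axis in bp, upstream negative) for the 16 genes with a peak (y axis); grey triangles are the nearest other protein-coding 5′ ends within 500 bp of the summit. All 16 circles lie upstream of 0, and 11 rows have a grey triangle, which lies beyond the summit except at cox-16.

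None of the 16 summits was close to a structural RNA gene. A snRNA, spliced leader, tRNA, snoRNA or rRNA gene lay within 1000 bp of 0 of the 16 summits (interval 0 to 20.6%). That interval holds the 10.3% of all genes with a peak. The median distance to a structural RNA gene was 50544 bp, from 2103 bp at nuo-1 to 213594 bp at cox-14. Over all 1491 genes with a peak it was 35696 bp, from 0 to 480401 bp. An RNA gene of any class lay within 250 bp of 4 of the 16 (25%, interval 7.27 to 52.4%), against 18.4%, which that interval holds. They were noncoding RNA genes of unstated function at nuo-1 (C09H10.11) and cox-6C (F29C4.9), with the summit inside them, one 25 bp away at atp-3 (F27C1.17), and the piRNA gene 21ur-12279 at a distance of 113 bp at atp-1. Peaks with no RNA gene that near left 12 of the 31 genes with a peak (6.12% of all genes). With these left out, the strongest peak of complex V was that of atp-2.

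The genes were next split by what lies upstream of them. Worm genes that follow each other closely on one strand can form operons, transcribed from a promoter before the first gene. Of the 12 genes whose upstream neighbour on the same strand ends within 500 bp, 2 had a peak (16.7%, interval 2.09 to 48.4%), and of the other 19 genes 14 had one (73.7%, interval 48.8 to 90.9%). Over all genes the same split gave 7.2% and 7.53%. The split was chosen after values had been seen, and whether the close pairs are operons was not tested. At 200 bp the counts were 1 of 11 and 15 of 20, and at 1000 bp 2 of 13 and 14 of 18. The close group holds 4 of the 6 nuo- genes (nuo-2 to nuo-5) and 5 of the 8 assembly factor genes, but none of the genes for complex IV subunits. Its members with a peak were ucr-2.2, 268 bp from ocr-3, and atp-4, 96 bp from alh-4, with the summit of atp-4 inside an alh-4 exon. The upstream gene itself had a peak in 2 of the 12 cases, dad-1 before ucr-11 (218 pooled) and Y55F3AR.2 before cox-18 (347 pooled), and 12.2% of the upstream genes of all such pairs had one. Only the immediate upstream gene was looked up. At nuo-4, cox-11, cox-15 and cox-19 that gene has a further gene within 500 bp upstream (gaps of 5, 274, 237 and 463 bp). Peaks at those further genes were not counted. Among the genes outside the close group, nuo-6, ucr-2.3, cox-6A, cox-7C and cox-10 had no peak.

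The summit windows had a median GC content of 41.3%, as had the windows of all 1491 genes with a peak. Motifs were counted on both strands in windows of 201 bp. CTGTTTCA lay in 1 of the 16 windows, that of atp-2, against 1.01% of the windows of all genes with a peak. TTTCAG, which has the letters of the worm 3′ splice site and overlaps CTGTTTCA by 5 letters, was in 7 of 16 (43.8%), against 22.7%. TATAAA was in 2 of 16, against 16.5%, GAGAGA in 2 of 16, against 26.1%, and a run of 8 T in 3 of 16, against 15.1%. In promoters, taken from 250 bp before to 50 bp after the outermost 5′ end, TTTCAG was in 22 of the 31 genes (71.0%), against 52.2% of all genes, and TATAAA in 13 (41.9%), against 37.9%. GAGAGA was in 6 promoters (19.4%), against 21.7%, the T run in 9 (29.0%), against 32.5%, and CTGTTTCA in 1 (3.23%), against 2.34%. Split by peak, TTTCAG was in 14 of 16 promoters of genes with a peak (87.5%) and in 8 of 15 without one (53.3%). GAGAGA was in 5 of 16 and 1 of 15, TATAAA in 8 of 16 and 5 of 15. The T run went the other way, with 4 of 16 and 5 of 15. A match describes letters only.

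All words of 9 bases were also compared among the 16 windows, and 12 words occurred in at least 3 of them. CGATTTACG was in 4 windows, those of cox-4, cox-5A, cox-5B and ucr-1, and in 2.82% of the windows of all genes with a peak. CGCCTTTAA was in 3, those of nuo-1, cox-16 and ucr-1, and in 4.02% of all. Neither word stood apart from the rest of the 12. AAAAAATAG and CAAAAAATA were also in 4 windows (2.48% and 3.89% of all), and ATTTTTCAC was in 3 (1.81% of all). The words CGATTTACG and CGCCTTTAA were picked after all had been counted, so their shares are a description with no test.

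Other genes of oxidative metabolism, whose names do not follow the prefixes, were assigned peaks by the same rule, and their counts are to be read against the 7.47% of all genes. Of 25 further genes of the complexes, 6 had a peak (24.0%, interval 9.36 to 45.1%). The 25 include the ATPase inhibitor genes mai-1 and mai-2, which are no subunits and had no peak, so 6 of 23 subunit genes had one. The strongest were cyc-1, for the cytochrome c1 of complex III, with a pooled signal of 240.1, and mev-1, a membrane subunit of succinate dehydrogenase (complex II), with 209. They were followed by nduf-11 of complex I with 199 and sdha-1, the flavoprotein of complex II, with 117. Complex II, whose genes are all among the 25, had 2 of 5 with a peak (interval 5.27 to 85.3%, which holds the share of all genes). Among 27 complex I genes whose names begin with nd, a list added after values had been seen that shares 9 genes with the 25, 9 had a peak (33.3%), of which ndub-8 was the strongest with 302. The nuo- genes, with 1 of 6, thus leave out most complex I genes that had a peak.

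Of the mobile carriers and their makers, 1 of 10 genes for cytochrome c and ubiquinone synthesis had a peak, the cytochrome c gene cyc-2.1 with 162, a share whose interval (0.253 to 44.5%) holds the 7.47% of all genes. Of the 4 ADP/ATP carriers of the inner membrane, ant-1.1 had one with 180.2, and of 5 assembly factors with other names sco-1, which handles copper for complex IV, with 140. The intervals of the carriers (0.631 to 80.6%) and of these assembly factors (0.505 to 71.6%) hold that share of all genes too. In the citric acid cycle 6 of 17 genes had a peak (35.3%, interval 14.2 to 61.7%), the strongest being sucl-1 of succinyl-CoA ligase with 222, dld-1, the dihydrolipoyl dehydrogenase, with 217, the aconitase gene aco-2 with 173 and the citrate synthase gene cts-1 with 158. Of the genes named from these lists, sdha-1 (D2021.5), dld-1 (LLC1.120) and aco-2 (F54H12.9) had an RNA gene within 250 bp of the summit. For the 25 further genes the split by upstream neighbour did not repeat that of the 31 genes: 3 of 6 with a close neighbour had a peak and 3 of 19 of the others.

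The 16 genes with a peak were spread over all nuclear chromosomes, with 4 of 9 on I, 1 of 3 on II, 5 of 9 on III, 1 of 4 on IV, 3 of 4 on V and 2 of 2 on X. The share of all genes with a peak was not counted by chromosome, so these counts do not set any chromosome apart.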

How the data were processed

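SNPC-4 ChIP-seq was deposited as region lists in narrowPeak form (ce11). The authors' thresholded list holds 2950 summits that passed an IDR filter, of which 2926 are nuclear. Candidate lists of 30000 entries each exist for the pooled reads and for each replicate, scored with a control per the deposited listing. The aligner is not given in the sources used here, nor are the peak caller and IDR threshold. The signal is the score the authors deposited for each region and depends on depth, which is not given. The deposited −log10 q-values have 1 value in the thresholded list and were not used. Summit offsets, as deposited, were turned into 1-based positions. The ce10 lists were not used.

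Genes and sequence came from RefSeq WBcel235, with Ensembl release 115 as an alternative. A replicate's signal at a peak is that of its overlapping candidate with the nearest summit. RNA genes within 250 bp were counted. Peak assignment was tested on simulated data. No test between conditions exists in 1 group of 2 replicates, so counts and medians stand beside those of all genes, with exact 95% binomial intervals (scipy 1.17.1, numpy 2.4.6, Python 3.11.15). The members and lists were chosen with earlier results of these data known. All genes with a peak are named, with values for the 12 strongest and the strongest of each complex, and up to 4 genes from each other list.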

Additional observations from a re-analysis of the deposited data

How the results depend on the processing

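Of the 31 genes, 16 had a peak. The count was 2 at a distance of 100 bp, 7 at 250 bp, 6 with the 1463 peaks of highest signal, 10 where the gene's own 5′ end was nearest and 8 among regions strong in both replicates, an alternative added after the data had been seen. Leaving out a replicate gave 12 to 14. Any overlap of the region gave 17, and the outermost 5′ end, the strongest pooled regions and the Ensembl annotation each gave 16. Names starting sdh, added later, gave 17 of 35.

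By complex, at 100 bp complex I had 0 genes, complex III 0, complex IV subunits 0, assembly 0 and complex V 2. At 250 bp complex I had 0, complex IV subunits 1, assembly 1 and complex V 3. With the 1463 peaks of highest signal complex I had 0, complex IV subunits 3, assembly 0 and complex V 1. Without peaks near RNA genes complex I had 0 and complex V 3. Leaving out a replicate gave 0 to 2 for complex I, 3 to 5 for complex IV subunits, 1 to 2 for assembly, 2 to 3 for complex III and 3 to 5 for complex V. The 100 and 250 bp limits admit fewer summits by construction; the cause of the replicate differences was not tested.

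The median relative signal of the pooled peaks was 0.748 of the median IDR peak. It was 0.746 to 0.823 with a replicate left out and 1.65 at 100 bp, where 2 genes remain. The mean of log2 signal gave 0.844, which is not a fraction of the median IDR peak and cannot be set beside the other values. The median position of -273 bp became -278 to -243 with a replicate left out. With structural RNA classes alone, 0 of the 16 peaks lay within 250 bp of an RNA gene.

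No paired analysis was possible because the study has 1 group of 2 replicates. Depth per replicate is not given, so a missing peak is not evidence that SNPC-4 is absent.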

Other observations

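The mitochondrial genome, which encodes the remaining subunits of complexes I, III, IV and V, was left out of all counts. It held 24 of the 2950 thresholded summits and 24 of the 30000 pooled candidates, with 17 in the candidate list of replicate 1 and 22 in that of replicate 2. A mitochondrial genome is present in many copies per cell, and the part of copy number in these entries was not tested.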
